A study of Bos taurus with 12 samples.

Results

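The comparison described here asks whether the granulosa layer and the theca layer of bovine ovarian follicles differ in how their transcript levels shift between small and large antral follicles. It was chosen as an interaction, the large minus small difference in granulosa minus the large minus small difference in theca, over all 24016 probe sets that are not array controls. A positive interaction therefore means that the granulosa change lies above the theca change. It uses 8 of the 12 arrays in the series, 2 for each of 4 groups assigned by sample title. The groups are granulosa cells of large follicles (over 10 mm in diameter), granulosa cells of small follicles (up to 5 mm), theca cells of large follicles and theca cells of small follicles. The 4 arrays of medium follicles (5 to 10 mm) enter the estimate of the spread and are shown for context. All groups came from untreated follicular-stage ovaries, without a corpus luteum, of young cycling heifers. Total RNA of each group was labelled with biotin and hybridised to 1-colour Affymetrix bovine arrays. The protocol gives cells of 20 to 40 same-sized follicles per RNA sample, whereas the design text, written for granulosa, gives 20 to 40 ovaries of 6 to 10 animals per biological replicate. The spread between animals is therefore hidden inside the pools, and whether an animal gave cells to more than 1 pool is not stated. The p-values below measure the spread between pools.

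Granulosa cells line the inside of the antral follicle, lack blood vessels, and turn androgens into oestradiol under the drive of FSH. Theca cells lie outside the basement membrane, are supplied by capillaries, and make androgens under the drive of LH. As a follicle becomes dominant, granulosa cells acquire LH receptors and high aromatase. The stroma around the theca holds fibroblasts, pericytes and resident leukocytes, any of which may contribute RNA to a dissected layer. In such bulk samples fewer cells of a type and less RNA per cell cannot be told apart.

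The description field of all 12 samples names theca, whereas titles and source names give granulosa for 6 of them. Levels are scaled array signals, and changes are differences of log2(signal + 16). The 9 measured theca markers summed to signals of 3891 and 6006 on the large and 5027 and 4856 on the small granulosa arrays. On the large theca arrays they summed to 30070.1 and 22075, and on the small theca arrays to 33760 and 21685, so this list separated the arrays titled granulosa from those titled theca. The 18 measured granulosa markers separated them too by their median level, which was 9.74 to 9.87 in log2(signal + 16) on the 6 granulosa arrays and 6.67 to 8.43 on the 6 theca arrays. Their summed signal, in which bright genes weigh most, overlapped. It was 46683 and 33802 in large and 33998 and 37249 in small granulosa, and 24582 and 34226 in large and 13381 and 16368 in small theca. Replicates correlated with Spearman coefficients of 0.896 for large granulosa, 0.926 for small granulosa, 0.943 for large theca and 0.867 for small theca. A pair of these 8 arrays stand apart. The GAPDH control had a 3' to 5' signal ratio of 8.36 on theca small replicate 1, against 0.984 to 1.30 on the other 11 arrays. The median signal was 48.7 on granulosa large replicate 1, against 33.6 to 39.1 elsewhere, and this array also had an actin 3' to 5' ratio of 21.0 against 2.39 to 11.2. Both sit in this contrast, and results without them are given for some of the genes and lists.

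No probe set passed the interaction test. In the limma fit, 0 of 24016 probe sets (0%) had a Benjamini-Hochberg adjusted p under 0.05, and the lowest adjusted p was 0.0882. At an unadjusted p under 0.05 there were 2386 probe sets (9.94%), of which 1658 were positive (6.9%) and 728 negative (3.03%). That balance followed the scaling of the arrays: 69.5% were positive on the deposited scale, 51.7% after quantile normalization and 41.5% after centring each array on its median. The median interaction over all probe sets was 0.12 on the deposited scale, -0.01 after quantile normalization and -0.10 after centring. The median standard error of an interaction was 0.49, with 2 arrays per group. The large minus small differences of the layers did not overlap in 3460 probe sets with granulosa above theca (14.4%) and in 1869 with granulosa below theca (7.78%). All interactions given below are estimates that did not pass the threshold.

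The number of calls changed with single arrays, and with the filter, prior, centring or replicate block by at most 2 calls. Without granulosa large replicate 2, which leaves large granulosa to the array with the high median, 139 probe sets passed, 130 of them positive. Without theca small replicate 2, which leaves small theca to the array with the high GAPDH ratio, 86 passed, and 62 of these were negative. The 2 sets shared 6 probe sets, 4.32% of the first and 6.98% of the second. With both arrays that stand apart left out, 0 passed in limma and 1820 had an unadjusted p under 0.05. Leaving out either medium granulosa array gave 1 call, CCL5, and leaving out any other array gave 0. A lone array in a group is assumed in these fits to vary like the others.

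**Figure D1:**
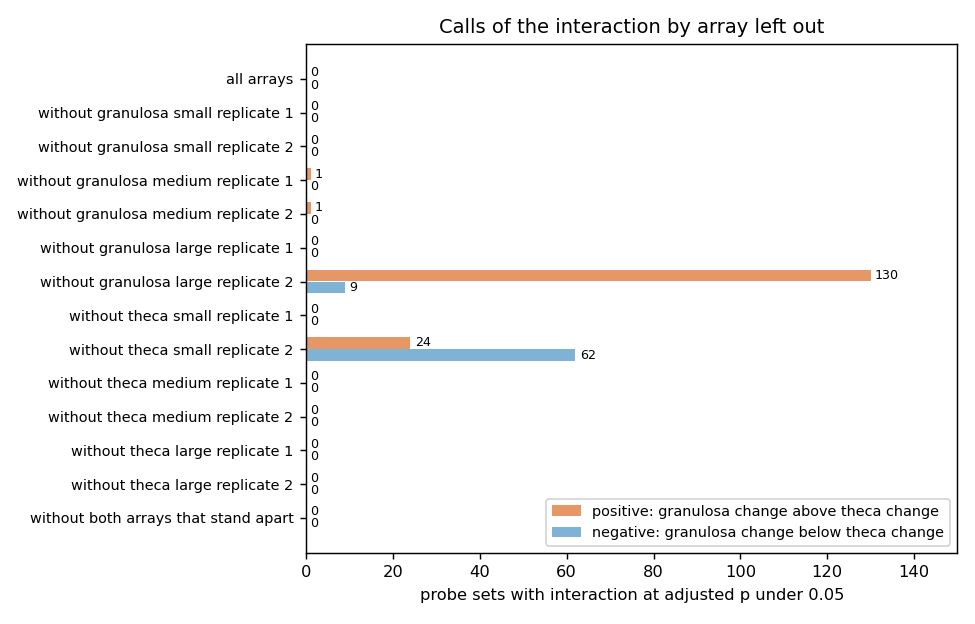
Number of probe sets whose interaction had an adjusted p under 0.05 (x axis) when all arrays were used and when the array named on the y axis was left out. Orange bars count positive and blue bars negative interactions. Only the omissions of granulosa large replicate 2 (130 positive, 9 negative) and theca small replicate 2 (24 positive, 62 negative) gave more than 1 call.

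The layers' own changes were of unequal size. In granulosa, limma called 226 probe sets higher (0.941%) and 43 lower (0.179%) in large than in small follicles, whereas in theca it called 6 higher (0.025%) and 0 lower (0%). Across all probe sets the granulosa change had a standard deviation of 0.59 and the theca change of 0.50. The changes of the layers correlated weakly over the 24016 probe sets (Pearson r = 0.16, Spearman coefficient 0.11). These points are probe sets on the same 8 arrays and not independent replicates. Where both layers differed by at least 1 (log2), 166 probe sets moved in the same sense and 37 in opposite senses, so that 18.2% of the 203 were opposed. The granulosa calls rested on single arrays too. They numbered 0 when granulosa large replicate 1 or either small granulosa array was left out, 121 without either medium theca array, and 661 when granulosa large replicate 2 was left out. The theca calls numbered 455 without theca small replicate 2, 1 without theca small replicate 1, and 0 without theca large replicate 2 or without any array of large or small granulosa.

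**Figure D2:**
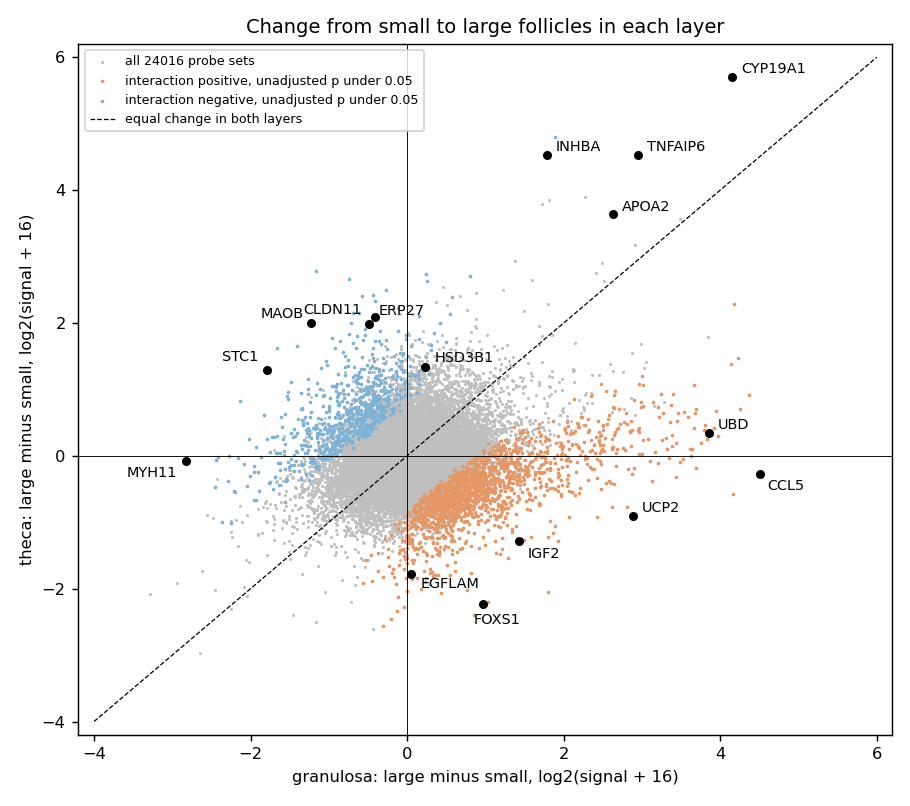
Change from small to large follicles in granulosa (x axis) and theca (y axis), both large minus small in log2(signal + 16), for 24016 probe sets, with the dashed line marking equal change. Orange and blue points have an interaction with an unadjusted p under 0.05, positive and negative, and black points are named genes. CCL5, UBD and UCP2 lie far to the right near or below a theca change of 0, while INHBA and CYP19A1 lie above the line with large changes in both layers.

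The gene with the lowest p was CCL5, a chemokine that attracts T cells and monocytes. Its signals were 557 and 297 in large granulosa, against 2.4 and 2.9 in small granulosa. In theca they were 90.3 and 77.2 in large follicles, against 129 and 84.0 in small follicles. Large granulosa thus stood far above small granulosa on both arrays, while the theca arrays overlapped. CCL5 rose in granulosa by 4.50 ± 0.43 (adjusted p = 0.00524 in limma), whereas the theca change was -0.28 with a 95% interval of -1.22 to 0.67. The interaction was 4.78 ± 0.61 (interval 3.45 to 6.11, adjusted p = 0.0882 in limma). The small granulosa signals are so low that the added 16 sets the size, and the interaction was 3.02 with 64 and 7.12 with 1 added instead. It was 4.08 without both arrays that stand apart, and its adjusted p ran from 0.0216 to 0.556 over the 22 alternative settings, 9 of which called it. In medium follicles the signals were 37.9 and 5.3 in granulosa and 70.7 and 48.0 in theca.

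UCP2, an uncoupling carrier of the inner mitochondrial membrane, came next. It gave 214 and 94.7 in large against 1.7 and 10.2 in small granulosa, and 45.5 and 39.9 in large against 106 and 83.3 in small theca. The arrays separated in both layers, upward in granulosa and downward in theca. UCP2 rose in granulosa by 2.89 ± 0.35 (adjusted p = 0.0116 in limma), and the theca change was -0.91 ± 0.35 (adjusted p = 0.483 in limma). Its interaction was 3.79 ± 0.50 (adjusted p = 0.0882 in limma). The small granulosa signals are so low that the added constant sets the size. The UCP2 interaction was 2.155 with log2(signal + 64), 5.82 with log2(signal + 1) and 3.12 without both arrays that stand apart. Its adjusted p in limma was 0.0419 with the filter on dim probe sets, 0.0495 with the trended prior and 0.411 with the 8 arrays alone.

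The other 6 genes chosen for the smallest p among positive interactions all had an adjusted p of 0.195. UBD, a ubiquitin-like protein induced by inflammatory cytokines, gave 1387 and 519.7 in large and 52.0 and 36.7 in small granulosa. In theca it gave 273 and 272 in large and 204 and 218.5 in small follicles. Its theca arrays separated slightly upward, with a change of 0.35 beside a granulosa rise of 3.86 (adjusted p = 0.0101 in limma). The probe set annotated BOLA, for the cattle MHC class I locus, had an interaction of 3.35, and NEK6, a mitotic kinase, had 2.60. Both rose in granulosa, by 2.43 and 2.07, while their theca estimates were -0.92 and -0.53. ARHGAP45 and RCSD1, which binds actin capping protein, had estimates of opposite sign in the layers and are taken up below. FOXS1, a forkhead factor known in the mouse from pericytes, differed mainly in theca. There it gave 10.5 and 6.3 in large against 140.4 and 67.9 in small follicles, and in granulosa 38.1 and 19.4 in large against 1.2 and 13 in small follicles. Its interaction was 3.21 ± 0.55, from a granulosa change of 0.97 and a theca change of -2.24 (adjusted p = 0.155 in limma).

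Among negative interactions STC1 had the lowest p. It encodes stanniocalcin 1, a secreted glycoprotein that acts on mineral balance and, in the ovary of several mammals, on steroid output. Its signals were 381.5 and 308 in large against 1672 and 899 in small granulosa, and 378 and 751.5 in large against 159 and 273 in small theca. Both large granulosa arrays lay below both small ones and both large theca arrays above both small ones, with a granulosa change of -1.79 ± 0.41 and a theca change of 1.29 ± 0.41. The interaction was -3.08 ± 0.58 (adjusted p = 0.195 in limma), -2.87 without both arrays that stand apart and between -3.56 and -2.60 over the alternatives. In medium follicles theca already gave 687 and 821, and granulosa 959 and 683.

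MAOB, a mitochondrial monoamine oxidase, gave 21.8 and 14.0 in large and 94.8 and 40.4 in small granulosa. Its theca signals were 311 and 104 in large and 31.4 and 35.8 in small follicles. The interaction was -3.23 ± 0.63 (adjusted p = 0.195 in limma), and the other MAOB probe set gave -2.59. CLDN11, a tight junction protein, gave 16.3 and 22.5 in large and 35.7 and 26.4 in small granulosa, and 177 and 130.6 in large and 21.9 and 25.5 in small theca. Its estimates were -0.41 in granulosa and 2.08 in theca, and its other probe set had an interaction of -1.70. ERP27, a chaperone-like protein of the endoplasmic reticulum, followed the same pattern, at 620.5 and 526 in large and 122 and 144 in small theca beside 14.9 and 37.7 in large and 42.3 and 39.8 in small granulosa. For CLDN11 and ERP27 the difference between the sizes thus lay mostly in theca. In the other 4 genes of this set the larger estimate lay in granulosa for TULP3 (-1.83, adjusted p = 0.0284 in limma), AVPR1A, the vasopressin receptor (-1.34), and RPRD1B (-1.52), and in theca for the protease gene PRSS12 (1.44). The 4 interactions were -2.45 for TULP3, -2.04 for AVPR1A, -2.38 for RPRD1B and -2.20 for PRSS12. In large granulosa AVPR1A gave signals of only 3.9 and 4, and PRSS12 1.4 and 5.6, so the added 16 sets the size. With 64 added instead AVPR1A had -0.84 and PRSS12 -0.90, and with 1 added -4.10 and -5.015. The other PRSS12 probe sets had interactions of -0.97 and -0.15.

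**Figure D3:**
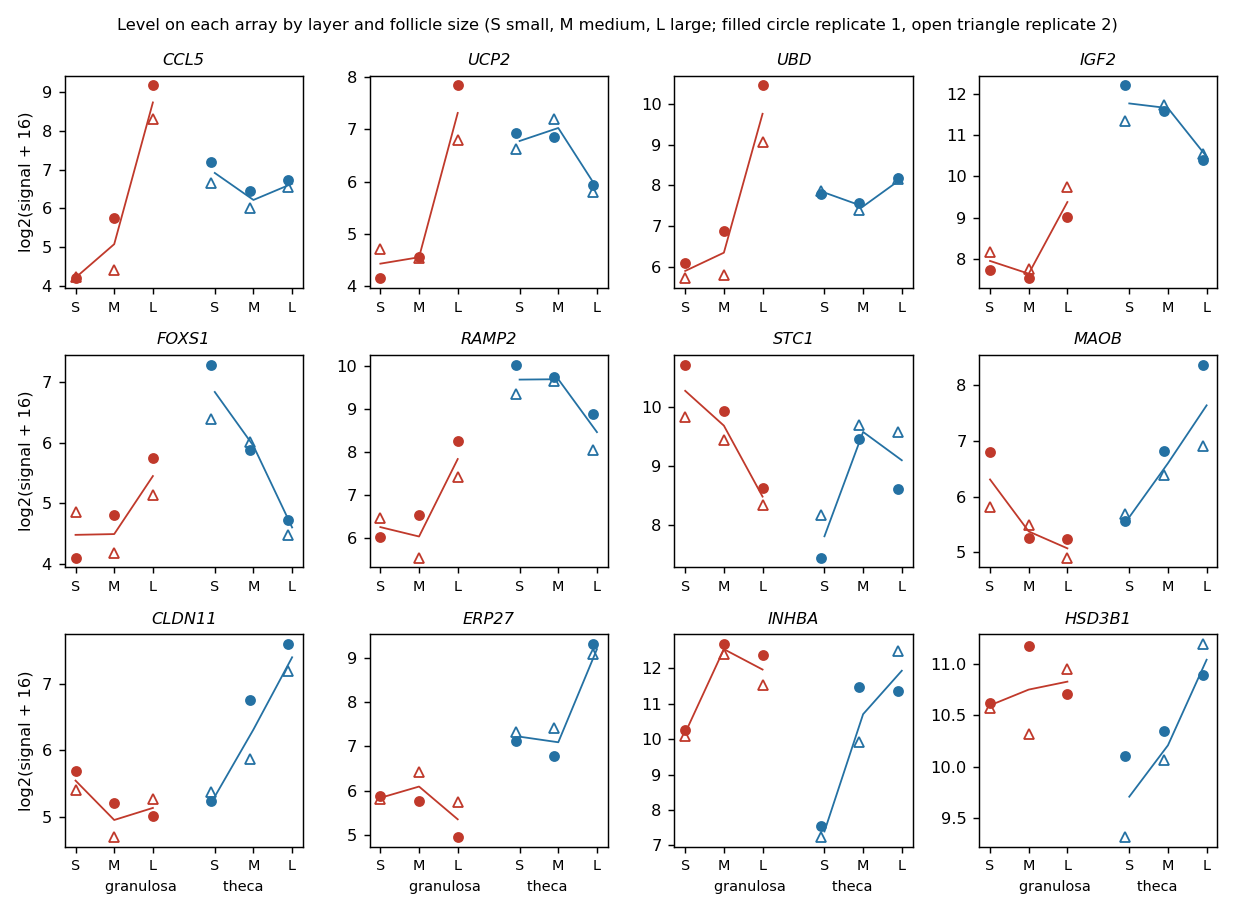
Level in log2(signal + 16) on each of the 12 arrays for 12 genes, with granulosa in red on the left and theca in blue on the right of each panel and follicle size from small (S) to large (L). Filled circles are replicate 1, open triangles replicate 2, and lines join the means of 2 arrays. CCL5, UCP2 and UBD climb in large granulosa, and INHBA and HSD3B1 start lower in small theca than in small granulosa. STC1 and MAOB descend in granulosa and are higher in large than in small theca, with the theca mean of STC1 highest in medium follicles.

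Since no interaction was called, the classes of opposite movement and of movement in a single layer held 0 called probe sets each. The same size limits were then applied to all probe sets as a description, a choice made after the values had been seen. In 24 probe sets (0.0999%) granulosa was at least 1 higher and theca at least 1 lower in large follicles, and in 13 (0.0541%) the reverse held. Large and small arrays did not overlap in either layer for 20 of the 24 and 9 of the 13. Choosing changes of at least 1 in both layers itself favours such separation. It also held for 86 of the 109 probe sets higher in both layers and 53 of the 57 lower in both. Without the size limits, arrays separated upward in granulosa and downward in theca for 4.62% of all probe sets, and the other way round for 2.07%.

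Genes with granulosa higher and theca lower included IGF2, a growth factor of theca and stroma. Its signals were 498 and 848 in large against 197 and 273 in small granulosa, and 1338.5 and 1489.9 in large against 4707 and 2567 in small theca. The granulosa level of IGF2 thus lay below the theca level in both sizes, and the gap was narrower in large follicles. Its interaction was 2.72 ± 0.50 (adjusted p = 0.195 in limma) and 2.66 without both arrays that stand apart, while its 3 other probe sets gave 0.19 to 2.10. BGN, a small proteoglycan, had a granulosa change of 1.49 and a theca change of -1.26, and RAMP2, the partner of the adrenomedullin receptor in vessels, had 1.58 and -1.22. ARHGAP45 rose in granulosa (1.92, adjusted p = 0.0346 in limma), at 199 and 70.3 in large against 18.4 and 21.5 in small follicles, while theca gave 29.3 and 18.5 in large against 89.1 and 72.1 in small follicles. It was the only probe set called in granulosa whose theca change was opposite and at least 1 in size. MAL, a membrane raft protein, EMILIN2, a matrix glycoprotein, ADGRF5, an adhesion receptor, and RCSD1 showed the same signs, with interactions of 3.03, 2.49, 2.46 and 2.40. The second probe sets of ADGRF5, RCSD1 and BGN gave 0.15, 1.23 and 1.56. Without both arrays that stand apart MAL, EMILIN2, ADGRF5 and RCSD1 had 1.78, 1.74, 1.70 and 1.84. RCSD1 gave signals of only 1.9 and 3.1 in large theca, and its interaction was 0.97 with 64 and 5.17 with 1 added instead.

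Genes with granulosa lower and theca higher included STC1 and MAOB, described above, and the response genes ERRFI1 and FOS. ERRFI1, an inhibitor of EGF receptor signalling, gave 6.7 and 46.6 in large against 191.5 and 53.0 in small granulosa, and 132 and 75.8 in large against 5.3 and 51.2 in small theca. Its interaction of -3.29 ± 0.91 became -1.73 without both arrays that stand apart, a shift of over 1.5 times. The lowest theca value lay on replicate 1 of small theca. The other ERRFI1 probe sets had interactions from -2.08 to -1.045. FOS, an immediate early transcription factor, gave 316 and 182 in large against 1078 and 407 in small granulosa, and 494 and 185 in large against 42.7 and 161 in small theca. Its brightest probe set gave a theca change of only 0.30, beside -1.44 in granulosa. For CTSB, a lysosomal protease, a probe set in this class had an interaction of -2.25, but its 5 other probe sets ran from -2.31 to 1.35.

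Movement in a single layer was likewise described by size, with at least 1 in the named layer and under 0.5 in the other. There were 734 probe sets higher (3.06% of all) and 320 lower (1.33%) in large granulosa on these terms. In large theca there were 351 higher (1.46%) and 298 lower (1.24%). These counts are on the deposited scale only. Of the 269 probe sets called in granulosa, 167 (62.1%) had a theca estimate under 0.5 in size, as did 73.7% of all probe sets. Another 30 had one of at least 1 in the same sense and 1 in the opposite sense. A small estimate does not show that a gene is level. For CORO1A, an actin regulator of leukocytes, the theca change of -0.09 had an interval from -1.17 to 0.99. Its signals were 1128 and 527 in large against 44.6 and 65.5 in small granulosa, and 196 and 86.6 in large against 172 and 115 in small theca. CORO1A rose in granulosa by 3.49 (adjusted p = 0.0143 in limma), with an interaction of 3.57 ± 0.70. ARHGDIB, IGHM, the constant region of IgM, and C3, the central complement component, rose in granulosa by 3.75, 2.97 and 2.88, beside theca estimates of 0.19, 0.03 and -0.28. The other C3 probe sets had interactions from 0.45 to 2.27.

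Among genes lower in large granulosa with a small theca estimate was MYH11, the smooth muscle myosin heavy chain. Its signals were 167.5 and 71.8 in large against 1097 and 712 in small granulosa, and 3519 and 1797 in large against 2927 and 2395.5 in small theca. MYH11 fell in granulosa by 2.83 (adjusted p = 0.0253 in limma), and its theca change was -0.07 with an interval of -1.18 to 1.03. Of the 10 measured smooth muscle and pericyte markers MYH11 was the only one called in granulosa, and 6 had a positive granulosa change. SPON1, a secreted adhesion protein, gave 192 and 156 in large against 794 and 711 in small granulosa, and 1615 and 1033 in large against 749 and 1544 in small theca. It fell in granulosa by 2.02 (adjusted p = 0.0278 in limma), but its other probe set had an interaction of -0.28 beside -2.28 for the first. DDO, which oxidises D-aspartate, and RASL11B, a small GTPase, fell in granulosa by 2.42 and 2.44, with theca estimates of -0.01 and -0.06. Their interactions were -2.405 and -2.382, and -1.526 and -1.855 without both arrays that stand apart. The other RASL11B probe set had an interaction of -1.35.

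None of the genes named for a difference in theca alone was called there. EGFLAM, a matrix protein related to agrin, gave 580.5 and 547.5 in large against 2446 and 1586 in small theca, and 35.9 and 23.2 in large against 25.7 and 29.2 in small granulosa. Its theca change was -1.78 ± 0.29 (adjusted p = 0.142 in limma), and its interaction was 1.83 ± 0.41. FBLN1, an elastic fibre component, gave 402 and 359 in large against 934 and 854 in small theca, and 75.5 and 92.6 in large against 67.3 and 47.2 in small granulosa. FBLN1's other probe set had an interaction of 0.33, against 1.66 for this one. MTF1, the metal-responsive transcription factor, showed the reverse, at 37.0 and 42.3 in large against 5.7 and 3.8 in small theca, while all 4 granulosa arrays lay between 40.4 and 47.1. Its interaction was -1.49 ± 0.37 (adjusted p = 0.252 in limma).

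The 5 named genes called in theca had positive changes in both layers, and none had an interaction that passed. CYP19A1, the aromatase that makes oestradiol, gave 3134 and 1821 in large against 113 and 126 in small granulosa, and 1633 and 4279 in large against 21.9 and 52.8 in small theca. It rose in granulosa by 4.15 (adjusted p = 0.0174 in limma) and in theca by 5.70 (adjusted p = 0.0141 in limma). The interaction of -1.55 had an interval of -3.57 to 0.47, and its 3 other probe sets gave -0.11 to 0.44. INHBA, the beta A subunit of inhibin and activin, gave 5342 and 2959 in large against 1205 and 1078 in small granulosa, and 2621.5 and 5756 in large against 171 and 135 in small theca. INHBA rose in theca by 4.54 ± 0.50 (adjusted p = 0.0141 in limma), beside a granulosa estimate of 1.79 ± 0.50 (adjusted p = 0.127 in limma). Among the 13 key genes it had the lowest p for the interaction, -2.75 ± 0.71 (adjusted p = 0.255 in limma), at -3.33 without both arrays that stand apart.

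TNFAIP6, which crosslinks hyaluronan, rose by 2.95 in granulosa and 4.53 in theca, and APOA2, an apolipoprotein, by 2.63 and 3.64. The TNFAIP6 interaction was -1.58, and its other probe set gave -0.26. LOC767968 rose in theca by 2.70 (adjusted p = 0.0344 in limma), beside 0.80 in granulosa. CYP19A1 and INHBA are themselves on the granulosa marker list. Of its 16 other measured members, 10 had a positive theca change, beside 10449 of all 24016 probe sets, and the median over the 16 was 0.14. Their summed signal was 20327 and 24190.2 in large theca against 13188 and 16180.0 in small theca. The keratin KRT18 did not go along, with 138 and 56.7 in large against 292.5 and 221 in small theca. The part of granulosa cells in the theca values was not tested.

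The other key genes had interactions closer to 0. HSD3B1, which makes progesterone from pregnenolone, gave 1655 and 1959 in large against 1561 and 1505 in small granulosa, and 1878 and 2325 in large against 1081.5 and 622 in small theca. The arrays separated upward in both layers, with estimates of 0.23 in granulosa and 1.33 in theca. The HSD3B1 interaction was -1.10 ± 0.50 (adjusted p = 0.496 in limma). FST, the activin-binding protein follistatin, had -0.06 in granulosa and 1.36 in theca, with an interaction of -1.42 ± 0.66. LHCGR, the LH receptor, gave 41.4 and 39.8 in large against 3.1 and 9.8 in small granulosa, and 87.6 and 158.5 in large against 27.5 and 37.4 in small theca. Its arrays separated upward in both layers by similar estimates, 1.35 and 1.48, and the interval of the interaction ran from -1.16 to 0.90. The other LHCGR probe sets had interactions of -1.09 and 0.02. CYP11A1, INHA and INSL3 had interactions of -0.30, -0.23 and 0.10, FSHR and AMH of -0.69 and -0.68, and STAR, CYP17A1 and HSD17B1 of -1.02, 0.91 and 0.95, each smaller than 2 standard errors. The chosen probe sets of all 11 genes of this paragraph had adjusted p-values of at least 0.496 in limma. Without both arrays that stand apart, the interaction was -1.78 for STAR, -0.80 for INHA and 0.11 for HSD17B1.

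Gene lists were described by counts and medians, with 423 of 529 list entries measured and 0 called for the interaction. The 529 entries cover 494 distinct genes, so some genes stand on more than 1 list. Over the 9155 genes with a symbol the median interaction was 0.06, and in 9.94% of all probe sets the unadjusted p was under 0.05. The highest medians were those of macrophage, lymphocyte and MHC class II genes. All 15 macrophage markers had a positive interaction with an unadjusted p under 0.05, at a median of 2.83, made of 3.59 in granulosa and 0.65 in theca. Of these 15, 14 were called as higher in large granulosa, beside 0.941% of all probe sets, and 0 in theca. C1QA, a subunit of complement C1q, gave 3081 and 763 in large against 75.2 and 95.6 in small granulosa, and 973 and 593 in large against 526 and 419 in small theca. CD68, a lysosomal protein of macrophages, gave 3038 and 610.5 in large against 84.1 and 99.5 in small granulosa, and 493 and 107 in large against 129 and 149 in small theca. In both genes granulosa large replicate 1 was several times above its replicate, and replicate 2 also lay above every small granulosa array.

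The macrophage list summed to 20218 and 5913 in large against 737 and 779 in small granulosa, and to 5558 and 2635 in large against 2569 and 2542 in small theca. Leaving out granulosa large replicate 1 lowered its median interaction to 1.91, and leaving out both arrays that stand apart lowered it to 1.87. Lymphocyte markers had a median interaction of 2.16, with 13 of 16 at an unadjusted p under 0.05. Of the 16, 9 were called as higher in large granulosa, beside 0.941% of all probe sets. CCL5, named above for its low p, is among these 9. CD3D, a T cell receptor subunit, gave 261 and 117 in large against 22.4 and 21.6 in small granulosa, and 65.5 and 42.3 in large against 66.9 and 56.6 in small theca. The B cell markers CD79A and MS4A1 had 0.23 and 0.62. Without both arrays that stand apart the lymphocyte median was 1.24, a shift of over 1.5 times.

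MHC class II genes had a median of 1.66 (5 of 7 at an unadjusted p under 0.05), and markers of blood myeloid cells had 1.42 (5 of 7). S100A8, a calgranulin of neutrophils and monocytes, gave 932 and 519.8 in large against 41.7 and 29.2 in small granulosa, and 35.1 and 37.8 in large against 33.0 and 13.7 in small theca. The calgranulin was thus at its highest in large granulosa and low on all 4 theca arrays. Chemokines and their receptors had a median of 1.32, with 8 of 19 at an unadjusted p under 0.05 and all 8 positive. Of the 19, 7 were called as higher in large granulosa, beside 0.941% of all probe sets. Interferon response genes had 0.87 (2 of 17), which became 0.27 without granulosa large replicate 1. Among 5 red blood cell markers, at a median of 0.52, HBB, the beta chain of haemoglobin, was the brightest, with 578.5 and 50.4 in large against 7.9 and 17.1 in small granulosa. In theca HBB gave 29.1 and 7.7 in large against 32.9 and 12.7 in small follicles. The part of blood in the leukocyte values was not tested.

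Endothelial markers differed in sign between the layers. Of 14 measured, 11 had a positive granulosa change and 12 a negative theca change, at medians of 0.69 and -0.90, but 0 passed in either layer. Over all 24016 probe sets, 13546 had a positive granulosa change and 13566 a negative theca change. The median log2 level of the 14 markers was 5.00 and 4.96 on the small and 5.81 and 5.08 on the large granulosa arrays. The granulosa rise of this median level thus lay mostly on large replicate 1, the array with the high median signal. Signals below 22.5 were found for 9 and 9 of the 14 in small and 4 and 9 in large granulosa. Over all probe sets, 7533 were below 22.5 on granulosa large replicate 1, against 9357 on granulosa large replicate 2. The median interaction of the 14 markers was 1.43, with 9 of 14 at an unadjusted p under 0.05 and all 9 positive. ROBO4, a vessel guidance receptor, gave 36.8 and 10.7 in large against 0.9 and 3.8 in small granulosa, and 41.9 and 7.4 in large against 252.5 and 90.6 in small theca. ENG, a coreceptor for TGF-beta in vessels, gave 183 and 73.3 in large against 40.6 and 37.9 in small granulosa, and 205 and 119 in large against 358 and 249 in small theca. Both genes separated by size in both layers, upward in granulosa and downward in theca. The von Willebrand factor gene VWF went against this with an interaction of -0.28, and PLVAP was positive in both layers.

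The summed endothelial signal was 844 and 579 in large against 347 and 418 in small granulosa, and 1222 and 703.5 in large against 2537 and 1773 in small theca. The gap between the layers was thus narrowest in large follicles, while medium theca, at 2392 and 2081, lay near small theca. Its median interaction stayed positive under every scaling tried, from 0.80 with log2(signal + 64) to 2.21 with log2(signal + 1), and was 1.07 without both arrays that stand apart. Fibroblast and stroma markers had a median of 0.62, with DPT at 1.99 and ASPN at -2.37. ASPN, a proteoglycan of connective tissue, gave 674.5 and 983 in large against 34.4 and 341 in small theca, so that its theca estimate of 2.63 leaned on small theca replicate 1.

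**Figure D4:**
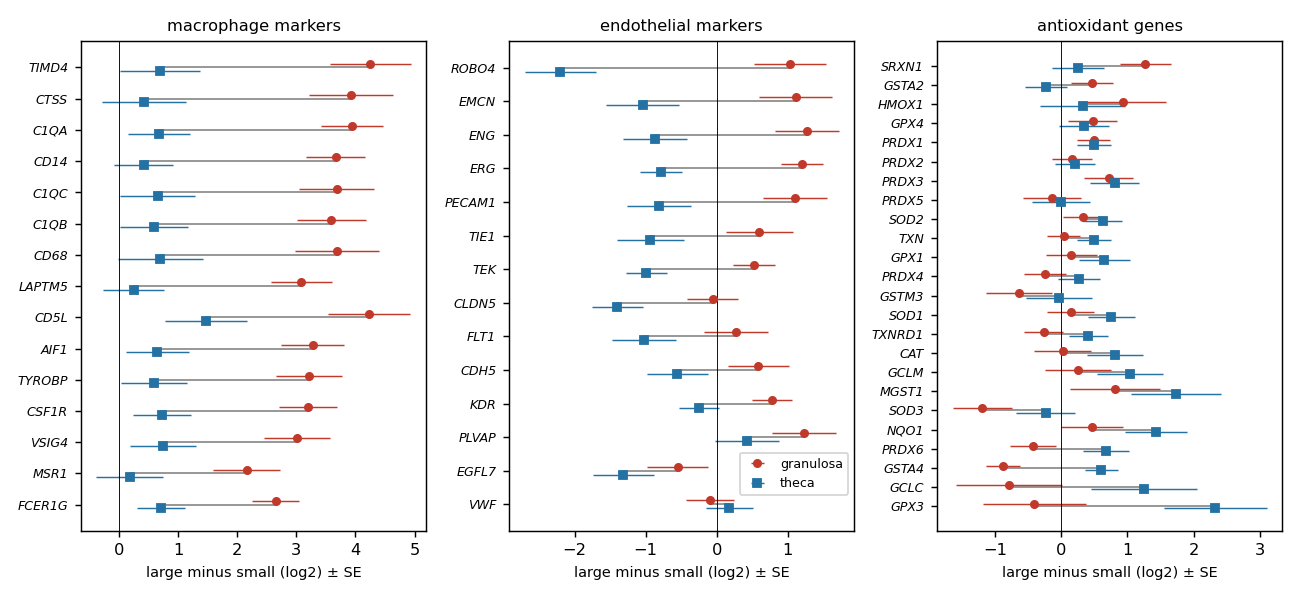
Change from small to large follicles (x axis, log2 ± standard error of the model, 2 arrays per group) for each measured member of 3 gene lists, with granulosa as red circles and theca as blue squares. Macrophage markers are far to the right in granulosa, endothelial markers lie right of 0 in granulosa for 11 of 14 and left of 0 in theca for 12 of 14, and antioxidant genes lean right in theca for 20 of 24.

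Granulosa markers had the lowest median, -0.68 with 2 of 18 at an unadjusted p under 0.05, INHBA and FOXL2. FOXL2, a transcription factor that maintains granulosa identity, gave 8.6 and 64.3 in large against 54.0 and 91.1 in small granulosa, and 38.2 and 58.4 in large against 3.7 and 1.4 in small theca. The FOXL2 interaction was -2.74 ± 0.88 (adjusted p = 0.345 in limma). Antioxidant genes had a median of -0.56, with 20 of 24 positive in theca, beside 10449 of all 24016 probe sets. Of the 24, 3 had an unadjusted p under 0.05, all negative, beside 9.94% of all probe sets in either direction. GPX3, a secreted glutathione peroxidase, gave 997 and 759 in large against 841 and 1589.8 in small granulosa, and 671 and 986 in large against 50.7 and 395 in small theca. GSTA4, which conjugates lipid peroxidation products, was tighter between replicates, at 590.5 and 640 in large against 1144.5 and 1136 in small granulosa, and 2022 and 1727 in large against 1266.5 and 1176 in small theca. Its interaction was -1.48 ± 0.36 (adjusted p = 0.244 in limma), with the arrays separated in both layers.

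The antioxidant median was -0.24 without theca small replicate 1, and the smooth muscle and pericyte median of -0.54 was -1.16 without it and -0.09 without granulosa large replicate 1. Theca markers had -0.30 (0 of 9 at an unadjusted p under 0.05), which became -0.0012 without theca small replicate 2, and steroidogenesis genes -0.24 (2 of 16). Cholesterol genes had -0.46 (1 of 13) but 0.06 without theca small replicate 2. FDFT1, the squalene synthase, was the member with the low p, and its small theca arrays read 26.4 and 171. Inhibin, TGF-beta and BMP genes had -0.39 (3 of 22), which turned to 0.05 without both arrays that stand apart. Immediate early and heat shock genes had -0.38 (3 of 20), led by the transcription factors MYC (-1.88) and FOS (-1.74).

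Matrix proteases and inhibitors had 0.48 (4 of 22), with CTSS, a leukocyte protease, and PLAU, the urokinase, the largest at 3.49 and 2.48. Extracellular matrix genes had 0.30 (6 of 34), where BGN (2.75) and the basement membrane collagen COL15A1 (2.26) stood opposite ASPN, and the median was -0.06 without theca large replicate 2. COL15A1 gave 485 and 243 in large against 1771 and 2188 in small theca, and 23.1 and 54.1 in large against 33.2 and 57.6 in small granulosa. Cell cycle genes had 0.31 (1 of 30), and -0.06 without granulosa small replicate 1. Oocyte markers had 0.27 (0 of 7), and -0.37 without granulosa large replicate 1. The IGF system had 0.13 (3 of 13), where IGFBP3 (1.60) and IGFBP4 (1.92) had the same signs as IGF2, and its median was -0.09 after median centring. Solute and water transport had 0.12 (2 of 21), and -0.10 after median centring and -0.08 with log2(signal + 1). Hypoxia and glycolysis genes had 0.04 (1 of 24), with -0.18 after median centring. LH surge and ovulation genes had -0.04 (5 of 14), with 0.12 for log2(signal + 1), and the list of gonadotrophin receptors and cAMP signalling had -0.23 (2 of 12), with 0.21 without theca small replicate 1.

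**Figure D5:**
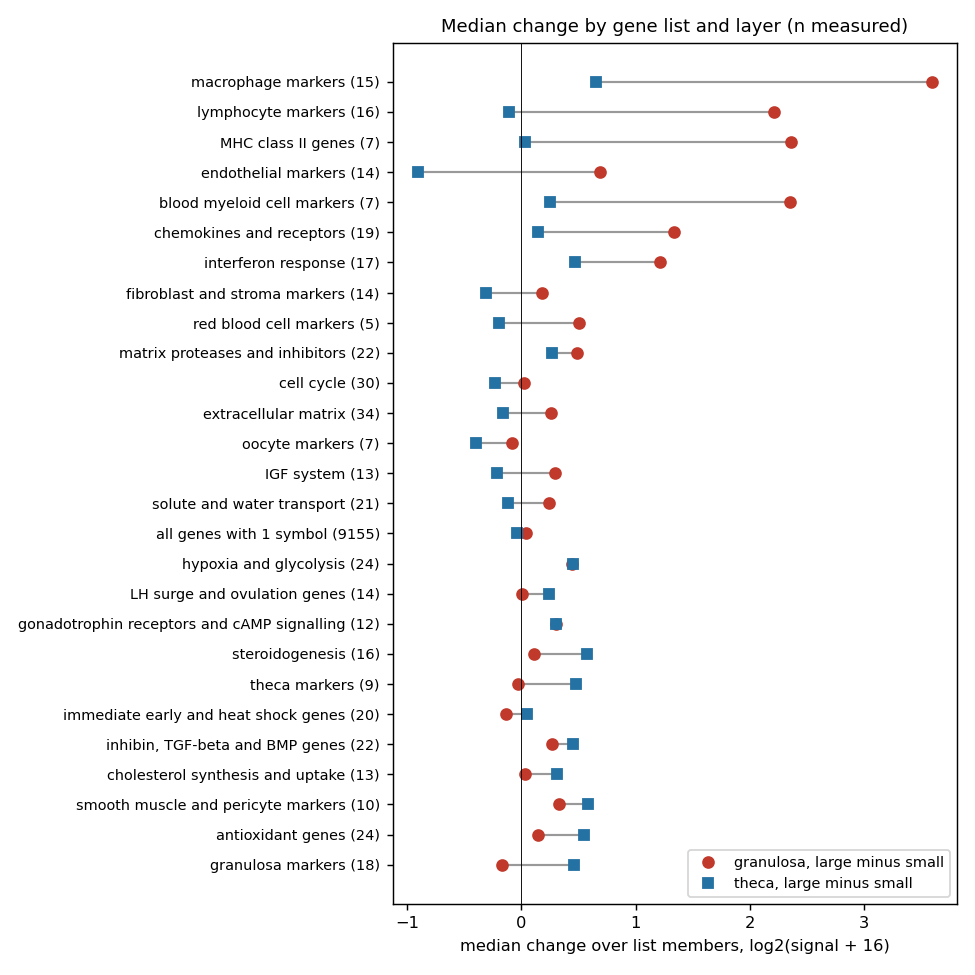
Median change from small to large follicles over the measured members of each gene list (x axis, log2(signal + 16)), with granulosa as red circles and theca as blue squares, and lists ordered by their median interaction. The number of measured members stands beside each name. Leukocyte lists have the widest gaps with granulosa above theca, endothelial markers have the lowest theca median (-0.90), and granulosa markers have the widest gap with theca above granulosa.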

How the data were processed

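The authors deposited array intensity values on a linear scale, 1 for each of 24128 probe sets on 12 arrays, and per the labels the RNA was biotin-labelled. Which program made them is not given in the sources used here. Detection calls play no role. From the values, the 2% trimmed mean was 125 on each array, so the deposited values had been scaled. All 12 columns were mapped by identifier, and 112 control probe sets were left out. The platform annotation gave 1 symbol for 13292 of the rest, several for 86 and none for 10638. With 2 arrays per group, the number of arrays limits precision, and 0.333 is the smallest p of an exact test on 2 and 2 arrays.

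Signals were converted to log2(signal + 16), which understates folds of dim genes. With limma 3.58.1 (R 4.3.3), means of 6 groups were fitted over 12 arrays without trend (6 residual and 5.78 prior degrees of freedom), and p-values were adjusted by Benjamini-Hochberg over all 24016 probe sets. Errors are standard errors of the model, and intervals are 95% and unadjusted. Named genes were 13 key genes and the 8 smallest p-values in each direction whose arrays did not overlap in the layer with the larger change. All others were named after their values were seen. The brightest probe set stood for a gene in the 26 lists. The comparison, lists and alternatives were chosen with earlier results of these data known. Alternatives were 2 pseudocounts (1 and 64), a filter on dim probe sets, 2 normalizations, a trended prior, the 8 arrays alone, a replicate block and leaving out arrays. A block within each layer was added after the data had been seen. Figures used matplotlib 3.10.9 in Python 3.11.15.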

Additional observations from a re-analysis of the deposited data

How the results depend on the processing

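The interaction gave 0 calls on the deposited scale and 0 with log2(signal + 1), log2(signal + 64), quantile normalization, the 8 arrays alone and both arrays that stand apart left out. It gave 2 calls (CCL5 and UCP2) with a filter that kept 17236 probe sets and 2 (the same genes) with a trended robust prior, 1 (CCL5) after median centring 1 (CCL5) with the replicate block and 1 (CCL5) with a replicate block within each layer, chosen after seeing the data. In each of these 5 settings 1 call, CCL5, met the size limits for granulosa alone. Leaving out single arrays gave 0 to 139 calls, 0 to 20 of them in opposite directions, 0 to 83 for granulosa alone and 0 to 30 for theca alone. The 269 granulosa calls became 0 with log2(signal + 1), 23 with log2(signal + 64), 118 with the 8 arrays alone, 447 with the block within each layer, 0 without both arrays that stand apart and 0 to 661 without single arrays. The 6 theca calls became 0 with log2(signal + 1), 0 with log2(signal + 64), 0 without both arrays and 0 to 455 without single arrays. The cause of these shifts was not tested.

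Of 638 values of the 29 genes named by rule, 598 kept their direction and their side of the threshold, 24 passed it and 16 reversed. The reversals were all key genes, at adjusted p-values of at least 0.824. LHCGR gave 0.80 with log2(signal + 1), and INSL3 gave -0.27 after quantile normalization, -0.12 after median centring and -0.33 without both arrays. Without single arrays, the range was -0.51 to 0.25 for LHCGR, -0.40 to 0.60 for INSL3, -0.79 to 0.34 for INHA, -0.78 to 0.18 for CYP11A1, -0.033 to 1.85 for CYP17A1 and -1.64 to 0.27 for FSHR. No label links equal replicate numbers. Replicate differences correlated from 0.056 to 0.35 over the 3 pairs of granulosa groups, from 0.11 to 0.22 over the 3 pairs of theca groups and from -0.27 to 0.11 over the 9 pairs between layers, 8 of them below 0. With 2 numbers this does not show pairing, and either replicate block moved the count of interaction calls to 1.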
